A study of Mus musculus with 68 samples.

Results

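Expression in unstressed A/J fibroblasts was set apart from that of 7 other mouse strains for 457 autosomal genes, of 12571 autosomal genes listed. A gene was taken when its value in each of the 3 A/J control libraries lay above, or in each lay below, every one of the 15 control libraries of the other strains. By this rule 259 genes were higher in A/J and 198 were lower. Gaps were ranked among genes with a mean level of at least 5 that the limma fit given below also called. That mean was taken in A/J for higher genes and over the other strains for lower genes. The widest gaps above the other strains were then those of Angptl7, Col10a1, Tnn, Fmod, Comp and Lipg. The widest gaps below them were those of Nptx2, Nrn1 and Dysf.

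The cells were primary mouse embryonic fibroblasts (MEFs), cultured cells grown out of dissociated embryos, from inbred founder strains of the Collaborative Cross. The strains are A/J (A), 129S1Sv/ImJ (129), C57BL/6J (B6), NOD/ShiLtJ (NOD), NZO/H1LtJ (NZO), CAST/EiJ (CAST), PWK/PhJ (PWK) and WSB/EiJ (WSB). Control cells received 0.1% DMSO for 4 h, and parallel cultures received 2 ug/ml of tunicamycin (TM), a drug that blocks N-glycosylation and stresses the endoplasmic reticulum. A and PWK had 3 control libraries and the other 6 strains had 2 each, which makes 18 controls beside 22 TM libraries. All controls share the DMSO vehicle. Each MEF line pooled several female embryos of a single litter, so a difference between strains and a difference between litters or cell lines cannot be told apart here, and the spread between libraries of a strain is that of cultures of 1 line.

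MEFs are a mixed mesenchymal culture. Fibroblasts of different body sites keep different programs of matrix, growth factor and patterning genes, and such cultures can also hold chondrogenic and contractile cells as well as macrophages. Inbred strains differ in expression through sequence variants that act on the gene itself, on its regulators or on the makeup of the culture. In bulk RNA, fewer cells of a type and less RNA per cell cannot be told apart.

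Levels are given as TMM-scaled reads per gene, the unit of the deposited tables. They are reads on the gene relative to a library size scaled by TMM, without division by gene length, so a level can be compared between libraries but not between genes. The A controls held 12600090, 11312093 and 18257862 reads on genes, and the other controls held between 7091923 and 21530282. All genes of this report passed the filter of 0.5 in at least 2 controls, but 2 of them, Klhl40 and Spi1, passed it through A libraries alone. The rule left out 13 further genes, of which 10 are X-linked and 3 have no position in the annotation.

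A control 1 stood apart from the other A controls. On log2 values it correlated with A controls 2 and 3 at 0.969 and 0.970, against 0.993 between those libraries. Its level of Col1a1 was 20245 against 9429 and 9623, and 52 cytosolic ribosomal protein genes summed to 52155 in it against 34034 and 34166 in the others. It was the A library farthest from the other strains in 172 of the 259 higher genes and in 130 of the 198 lower genes, and the nearest in 58 and 38. A TM 2 likewise correlated with A TM 1 and 3 at 0.957 and 0.963, against 0.983 between those. The calls of named genes that end without either library are given below. Outside A, WSB controls 2 and 3 correlated at 0.962. WSB control 2 held a summed level of 1115 for 7 adipocyte markers against 44.6 in WSB control 3, and it was the nearest other library for 33 of the higher genes. Without it the rule gave 303 higher and 234 lower genes.

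The control values that chose the genes are described here and support no test. Among the 12547 autosomal genes past the filter, 2.06% had every A control above all other founder controls and 1.58% had every A control below them. The median difference of A from the mean of the 7 other strain means was 0.82 on the log2 scale over the 259 higher genes and -0.92 over the 198 lower genes, against 0.0039 over all genes tested. The difference was at least 2 fold in 102 higher and 88 lower genes, and at least 4 fold in 25 and 27. The empty interval between the nearest A control and the nearest other control exceeded 2 fold in only 7 higher and 6 lower genes. At the edge of the rule, the lowest A value of Ankrd40 was 114.4 against a highest other value of 114.2, while the lowest A value of Myh10, which missed the rule, was 630.6 against 634.7.

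A fit of the same 18 controls with limma called 4.2% of all tested genes higher and 4.1% lower in A, at an adjusted p below 0.01 and a difference of at least 1.5 fold. On whole reads recovered from the values, edgeR called 661 higher and 428 lower, where limma called 527 and 514. Of the 457 genes, limma called 168 of the higher and 137 of the lower, and without A control 1 it called 125 and 116. These counts use the libraries of the rule and are a description.

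The number of genes set apart in A was not large among the strains. The same rule found 1424 autosomal genes for PWK, which like A had 3 controls. With 2 controls each, which makes the rule easier to meet, it found 350 genes for NOD, 471 for NZO, 604 for B6, 725 for 129, 887 for WSB and 1506 for CAST. The other strains nearest to A were spread widely: the closest other library came from NZO in 52 of the higher genes, from WSB in 48 and from CAST in 20, and for the lower genes from CAST in 34, WSB in 32 and PWK in 20.

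Col10a1 encodes type X collagen, the collagen of hypertrophic cartilage, and lies on chr10:34389981-34397085 (GRCm38). Its level was 163.5, 176.8 and 168.3 in the A controls, and the other 15 controls ranged from 1.81 in CAST to 34.1 in WSB. Every A control lay far above the highest other library, and the log2 difference in the fit was 4.18 ± 0.12 (SE, n = 3 A and 15 other libraries), which is 18.1 fold on that scale. The TM libraries, which the rule did not use, gave 174.2, 124.9 and 174.8 in A against 2.41 to 35.4 in the others (log2 difference 4.07, limma adjusted p = 1.1e-11).

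Angptl7 is a secreted angiopoietin-like protein known from the cornea and the trabecular meshwork of the eye. Its gap was the widest of all called genes with a mean of at least 5. The A controls gave 57.3, 49.6 and 60.0, and the others ranged from 1.09 in 129 to 8.81 in B6. The groups were separated by 2.48 on the log2 scale. In TM-treated cells the A levels were 27.5, 29.0 and 44.8 against at most 8.58 elsewhere (log2 difference 3.29, limma adjusted p = 2.3e-07).

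Tnn encodes tenascin N, a glycoprotein of developing bone. Its A controls gave 44.4, 38.4 and 48.1, above the 14.2 of B6 control 2, which was the highest of the others. In TM-treated cells A TM 2 gave 18.0 and the remaining A libraries 42.6 and 40.5, still above every other TM library (log2 difference 3.52, limma adjusted p = 4.5e-09). Fmod encodes fibromodulin, a proteoglycan that binds collagen fibrils. It gave 198.5, 257.4 and 255.1 in the A controls, against 3.37 in CAST to 87.9 in WSB, and its difference was as large with TM (log2 difference 3.01 in control and 3.14 in TM-treated cells, limma adjusted p = 9.3e-12 for the latter). The strains other than A thus differed widely among themselves in this gene.

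Comp encodes cartilage oligomeric matrix protein. A control 1 gave 77.3 where A controls 2 and 3 gave 34.3 and 41.0, so that most of the spread of its mean of 50.9 ± 23.1 (SD, n = 3) came from that library. All 3 lay above the 16.9 of B6 control 2. Without A control 1 the log2 difference was 3.52 in place of 3.87, and in TM-treated cells it was 3.78 (limma adjusted p = 3.4e-10).

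**Figure D1:**
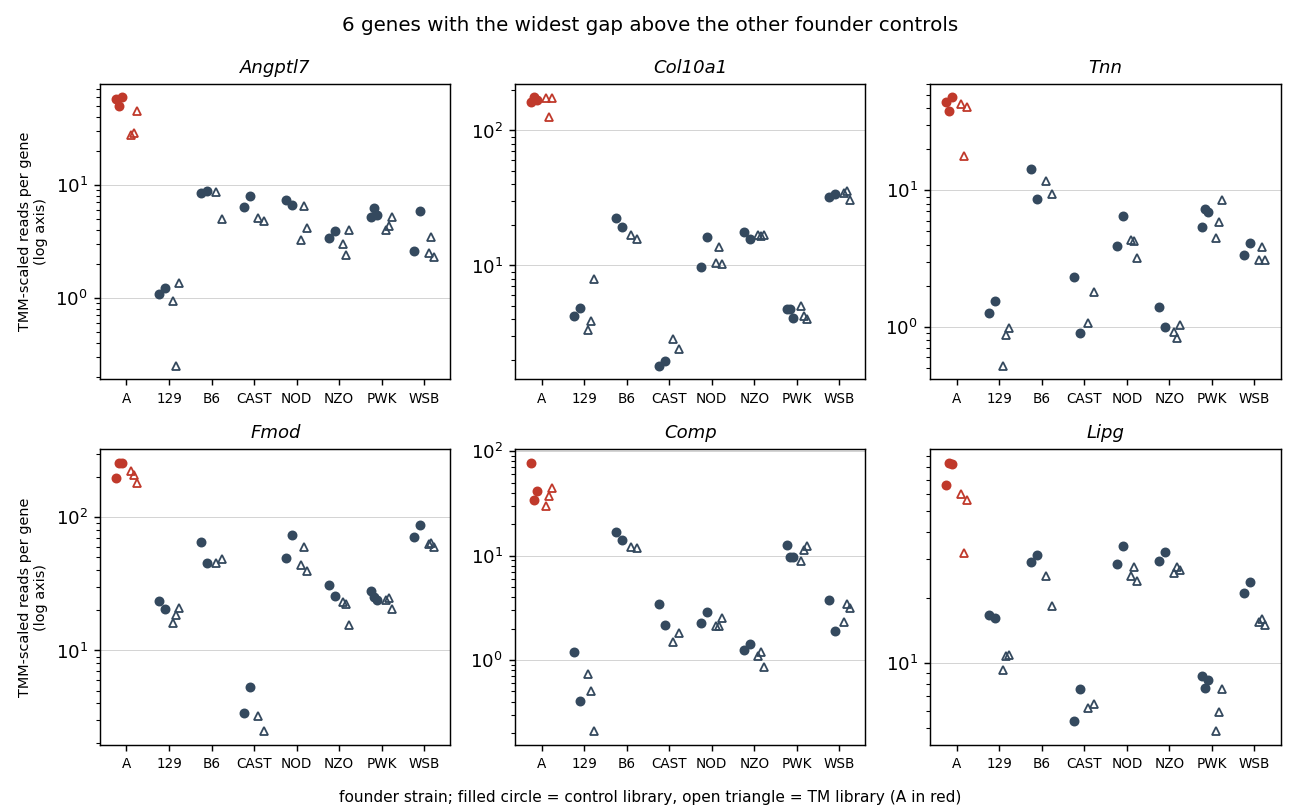
Level in TMM-scaled reads per gene (log axis) of 6 higher genes, for each founder strain on the horizontal axis. They have the widest gap above the other founder controls among called genes with a mean of at least 5 in A. Filled circles are control libraries, open triangles are TM libraries, and A is in red; in all 6 genes the 3 A controls lie above the other 15 controls, by 2.48 on the log2 scale for Angptl7 and by 0.94 for Lipg.

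Further genes with a wide gap above the other strains were of several kinds. Lipg, endothelial lipase, gave 66.5, 83.8 and 82.7 in the A controls against at most 34.6 elsewhere. Clec11a, a secreted lectin with osteogenic activity, was low in all strains, at 6.82, 5.29 and 4.99 in A and at most 2.94 in the others. Nell2, a secreted glycoprotein with EGF-like repeats, gave 30.5, 22.5 and 24.5 against at most 13.7 in NZO. Cpxm2, a member of the carboxypeptidase family, Mtus2, a microtubule-associated protein, and Kcnf1, a modulatory potassium channel subunit, were also among these genes, with log2 differences of 2.26, 1.29 and 1.79. These genes and the 5 secreted matrix and angiopoietin-like genes above were all higher in A in TM-treated cells too, with limma adjusted p between 9.3e-12 and 0.00022. In each of them every A TM library lay above all other TM libraries.

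Osteopontin (Spp1) and dentin matrix protein (Dmp1) are acidic phosphoproteins of mineralized tissue, encoded beside each other on chr5 with no other tested gene between them. Spp1 (chr5:104435118-104441050, GRCm38) gave 2127, 2280 and 2440 in the A controls, and the other controls ranged from 111.3 in CAST to 1597 in NZO. Dmp1 (chr5:104202613-104214102) was far scarcer, at 2.87, 3.37 and 3.63 in A against 0.207 to 1.51 in the others. In TM-treated cells the log2 differences were 1.46 (limma adjusted p = 4.2e-08) for Spp1 and 1.64 (limma adjusted p = 0.00078) for Dmp1.

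The promoters of Col10a1, Dmp1 and Spp1 are shown because these genes of mineralized tissue were higher in A together and Dmp1 and Spp1 are neighbours. The genes and the motifs were chosen after the values were seen. The sequences are RefSeq windows of GRCm38.p6, that is the C57BL/6J reference and not the A/J allele, from 250 bases before to 50 after an annotated start, all on the plus strand. Capitals mark ACCACA, the core bound by RUNX factors, and TATAAA, the letters of a TATA box, both searched on both strands.
Col10a1, chr10:34389731-34390030: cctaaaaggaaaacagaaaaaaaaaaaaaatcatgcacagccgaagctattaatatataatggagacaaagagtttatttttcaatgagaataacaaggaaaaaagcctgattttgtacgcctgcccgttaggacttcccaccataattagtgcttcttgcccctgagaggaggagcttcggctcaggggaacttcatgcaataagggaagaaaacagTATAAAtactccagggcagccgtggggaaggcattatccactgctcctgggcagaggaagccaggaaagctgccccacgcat
Dmp1, chr5:104202367-104202666: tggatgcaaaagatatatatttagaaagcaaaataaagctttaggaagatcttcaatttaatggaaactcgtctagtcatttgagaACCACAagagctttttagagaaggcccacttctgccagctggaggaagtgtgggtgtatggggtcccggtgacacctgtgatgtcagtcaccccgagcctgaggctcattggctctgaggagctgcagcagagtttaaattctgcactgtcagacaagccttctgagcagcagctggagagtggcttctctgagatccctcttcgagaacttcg
Spp1, chr5:104434861-104435160: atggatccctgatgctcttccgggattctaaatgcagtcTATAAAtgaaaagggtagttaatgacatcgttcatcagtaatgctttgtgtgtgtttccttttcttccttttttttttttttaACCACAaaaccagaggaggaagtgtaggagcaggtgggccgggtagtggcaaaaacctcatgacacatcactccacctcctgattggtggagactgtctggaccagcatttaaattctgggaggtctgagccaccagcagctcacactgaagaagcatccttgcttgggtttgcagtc
ACCACA stood 164 bases before the annotated start in the Dmp1 window and 128 before it in the Spp1 window, and TATAAA stood 32 bases before the start of Col10a1 and 211 bases before that of Spp1. The further windows of Dmp1 and Spp1, for other annotated starts, held neither. ACCACA or its reverse complement occurred in 16.8% of all 32851 RefSeq windows, in 9.4% of the 286 windows found for 210 of the higher genes and in 13.2% of the 197 windows found for 154 of the lower genes. TATAAA occurred in 13.6%, 9.4% and 8.1% of the same windows. These are matches of letters, and no binding was measured.

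Among 57 tested collagens and matrix genes, Fmod and Eln lay above all other controls and Tnxb below them. Over all tested genes 2.06% lay above and 1.58% below. Eln, which encodes elastin, gave 51.9 in A control 1 and 19.2 and 25.5 in A controls 2 and 3, against at most 18.7 in B6, so its margin was narrow outside A control 1. Without A control 1 its log2 difference in control cells was 1.30 in place of 1.71. In TM-treated cells it was higher in A (log2 difference 1.57, limma adjusted p = 0.0014). Tnxb, tenascin X, gave 3.77, 1.64 and 3.17 against at least 4.04 and was lower with TM (log2 difference -1.72, limma adjusted p = 3.9e-06). Of the 57 genes, 14 were called higher and 5 lower in control cells, where 4.2% and 4.1% of all tested genes were. In TM-treated cells 6 were called higher and 4 lower, against 3.94% and 4.06% of all tested genes. The list median was 0.27 in control and 0.16 in TM-treated cells on the log2 scale. Of 20 metalloproteinases and inhibitors, none lay outside the other controls. In control cells 4 of them were called higher and 0 lower, against 4.2% and 4.1% of all tested genes. With TM 5 of them were called higher and 2 lower, against 3.94% and 4.06%.

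Among the 6 tested chondrocyte markers, Comp alone was outside, where 2.06% of all tested genes lay above all other controls. In control cells limma called Col2a1, Acan and Col11a1 higher in A as well, where it called 4.2% of all tested genes higher. Acan and Col11a1 were not called in TM-treated cells, whereas Col2a1, the collagen of hyaline cartilage, was (log2 difference 1.04). The summed level of the 6 markers was 1053 in A control 1 and 597 and 582.6 in the other A controls, against 85.2 to 726.9 elsewhere, and CAST with 726.9 and 726.2 exceeded the latter A libraries. Sox9, the defining transcription factor of cartilage, was at 13.9 ± 2.61 (SD, n = 3) in A against a mean of 16.04 over the other strains.

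Contractile genes formed a further group. Of 8 smooth muscle and myofibroblast markers, Cnn1, Actg2 and Myh11 were above all other controls, as 2.06% of all tested genes were. Without A control 1 the number was 5, with fewer A libraries to meet the rule. Calponin (Cnn1) gave 925.5, 921.4 and 939.1 in the A controls against 411.8 to 691.1 elsewhere. The enteric smooth muscle actin Actg2 gave 797.7, 933.7 and 940.1 against 257.2 to 582.0. The smooth muscle myosin heavy chain Myh11 gave 329.4 in A control 1 and 173.6 and 181.3 in the others, against at most 136.2 in B6, with a log2 difference of 1.29, or 0.99 without A control 1. All 3 passed the test in TM-treated cells, with log2 differences of 0.84 (limma adjusted p = 1.9e-05), 1.32 (limma adjusted p = 1.7e-07) and 1.01 (limma adjusted p = 0.0045). For Myh11, however, A TM 2 gave 84.8, below the highest other TM library. The other 5 markers did not pass the test in either condition, with Tagln at a log2 difference of -0.08 and Lmod1 at 0.04 in control cells. Those 5 made up most of the summed level of the 8 markers, which was 21155 to 22230 in the A controls.

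Some markers of myeloid cells were set apart, 3 of 13 tested. Lyz2, the lysozyme of macrophages, gave 37.1, 43.1 and 41.7 in the A controls against 1.14 in NOD to 23.7 in B6. Spi1, the transcription factor that defines the myeloid lineage, rested on 18, 11 and 17 reads in A and on 0 to 7 reads in each of the others. The protease Ctss rested on 43, 20 and 38 reads in A, against 0 to 35 in the others. In TM-treated cells the log2 differences were 3.06 for Lyz2 (limma adjusted p = 5e-09) and 2.70 for Ctss (limma adjusted p = 8.3e-06). Spi1 passed the filter on controls through A libraries alone, and no test of it is given. Without A control 1 the control fit no longer called Spi1. It did not call Ctss when any single A control was left out.

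Over the whole list of 13 myeloid markers tested, 3 lay above all other controls in A and none below, where 2.06% of all tested genes lay above. The control fit called 4 of the 13 higher, and 1 without A control 1. With TM 6 were called higher, against 3.94% of all tested genes. Spi1, which passed the filter on controls through A libraries alone, is among the 3, the 4 and the 6. These counts are therefore a description and no test of the list. Their summed level was 64.2, 73.7 and 73.4 in the A controls, against 10.3 to 46.6 in the others, with Lyz2 making up most of the sum in A. Ptprc, the pan-leukocyte marker, was near its limit at 0.718, 0.820 and 1.19 in A and 0.246 to 1.10 elsewhere, and the macrophage markers Cd68 and Csf1r were not called in either condition. None of the 13 was at 0 in every control. The part that myeloid cells in the culture have in these differences was not tested.

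**Figure D2:**
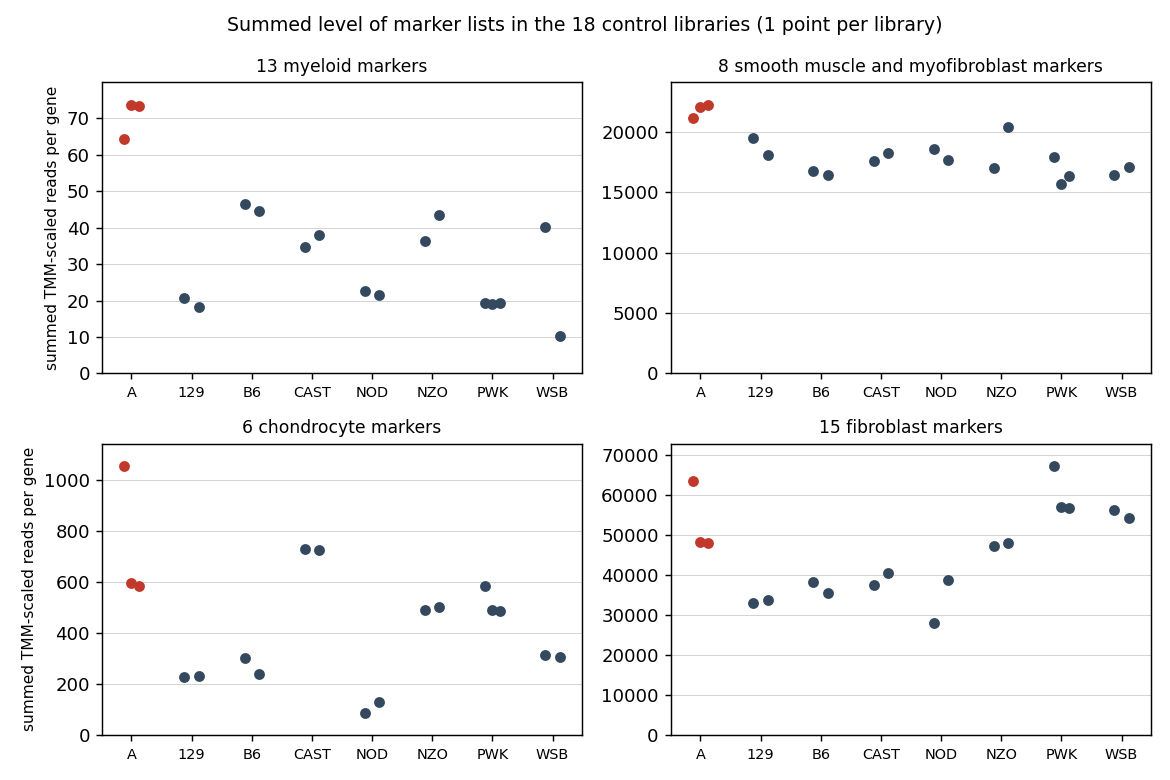
Summed level (TMM-scaled reads per gene, axis from 0) of 4 marker lists in each of the 18 control libraries, 1 point per library, with strains on the horizontal axis and A in red. The myeloid sum is 64.2 to 73.7 in A and at most 46.6 elsewhere, the smooth muscle sum is 21155 to 22230 in A and at most 20415 elsewhere, while the chondrocyte and fibroblast sums of A overlap those of other strains.

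The cultures carried the markers of their labelled type. The 15 fibroblast markers summed to 47949 to 63583 in the A controls and to 27899 to 67207 elsewhere, and none lay outside the other strains. Adipocyte, epithelial and skeletal muscle markers had no member outside. Emcn, an endothelial marker, was lower in A, with 1, 1 and 2 reads in the A controls against 2 to 68 reads in each of the others. Sox10, the transcription factor of neural crest and glial cells, was also lower, with levels of 0.988, 0.456 and 1.02 in A against 1.14 in CAST to 26.4 in NOD. In TM-treated cells Sox10 was called lower (log2 difference -2.34, limma adjusted p = 3.5e-09), with the lowest other TM library at 0.864 beside A values of 0.864 to 1.23. The 7 autosomal neural and glial markers tested went both ways. Map2 and Nes were called higher and Sox10 lower in control cells, and with TM 3 were called higher and 1 lower, against 3.94% and 4.06% of all tested genes. The list median was 0.74 in control and 0.57 in TM-treated cells. Their summed level was 1964 in A control 1 and 816.4 and 818.9 in the other A controls, against 213.3 to 886.5 elsewhere.

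Secreted signals were represented by 4 of 22 tested chemokines and cytokines and by 3 of 42 growth factors and binding proteins on the higher side. Over all tested genes 2.06% lay above all other controls. Cxcl14, a chemokine of epithelia and stroma, gave 222.1, 189.8 and 170.5 in the A controls against 6.37 in CAST to 108.9 in NZO. Il11, an interleukin of the IL-6 family made by stromal cells, gave 244.7, 200.3 and 220.8 against at most 185.7 in NOD. Il1rl1, which encodes the receptor of interleukin-33, gave 194.2, 261.8 and 265.5 against at most 140.8 in CAST. All 3 were higher in A with TM, with limma adjusted p of 1.7e-10, 9.5e-08 and 1.3e-06, and in that order their log2 differences were 2.20, 1.17 and 1.51. For Il1rl1, however, A TM 2 gave 186.7, below the 231.5 of CAST TM 2. Across the list 7 genes were called higher and 2 lower in control cells, against 4.2% and 4.1% of all tested genes. In TM-treated cells 11 were called higher and 0 lower, against 3.94% and 4.06% of all tested genes. The median difference of the list was 0.17 in control and 0.46 in TM-treated cells.

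Vegfa, the main angiogenic growth factor, gave 901.5, 636.6 and 674.2 in the A controls against at most 501.6 in NZO, and stayed higher with TM (log2 difference 0.94, limma adjusted p = 2.1e-05) although the highest other TM library reached 1043. Igfbp7, a secreted binding protein, was outside by a narrow margin, with the lowest A control at 1234 and NZO control 2 at 1226. Ccn1, a matricellular protein, and Wnt5a, a noncanonical Wnt ligand, met the rule with log2 differences of 0.30 and -0.50, under the 1.5 fold limit. Of the 42 genes, 9 were called higher and 2 lower in control cells, against 4.2% and 4.1% of all tested genes. In TM-treated cells 7 were called higher and 3 lower, against 3.94% and 4.06% of all tested genes. The TM call of Igfbp7 was lost without A TM 2 (limma adjusted p = 0.018).

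Interferon-stimulated genes went both ways. Of 29 tested, Ifi44, Isg15 and Ifih1 were above the other controls and Ifi204 and Ifi211 below them. Over all tested genes 2.06% lay above and 1.58% below. In control cells 5 of the 29 were called higher and 2 lower, against 4.2% and 4.1% of all tested genes. With TM 4 were called higher and 1 lower, against 3.94% and 4.06%. Ifi44 gave 5.21, 4.28 and 4.93 in A against at most 1.80 in 129, and was higher with TM by 3.26 on the log2 scale (limma adjusted p = 1.8e-08). Isg15, a ubiquitin-like protein, gave 4.13, 2.28 and 2.49 against at most 2.11. The control fit did not call Isg15 when any single A control was left out. With TM Isg15 was called higher (log2 difference 1.29, limma adjusted p = 0.00054), but A and other libraries overlapped and the call was lost without A TM 2 (limma adjusted p = 0.011). Ifih1, a sensor of viral RNA, was not called in TM-treated cells (log2 difference 0.36, limma adjusted p = 0.44). Its control call was lost without A control 2 and without A control 3. Ifi211, of the DNA-sensing Ifi200 family, gave 0.359, 0.547 and 0.794 against at least 1.51 and was lower with TM (log2 difference -1.82, limma adjusted p = 1.7e-06), whereas its relative Ifi204 was not called with TM (log2 difference -0.54, limma adjusted p = 0.033). Sharing of reads between members of this family was not tested. The median difference of the list was 0.11 in both conditions.

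Nptx2 encodes neuronal pentraxin, a secreted protein of synapses. Its A controls gave 4.58, 2.83 and 2.89, and the others ranged from 24.5 in B6 to 75.8 in WSB, so that the highest A library was well under the lowest other library. The log2 difference in the fit was -3.76 ± 0.12 (SE, n = 3 A and 15 other libraries), which is 13.6 fold on that scale. In TM-treated cells A gave 2.77, 3.24 and 3.58 against 20.1 to 70.2 (log2 difference -3.60, limma adjusted p = 1.7e-13).

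Nrn1 encodes neuritin, a neuronal protein anchored to the membrane. It gave 5.39, 4.37 and 4.08 in the A controls, while the other 15 controls stayed within 23.8 to 37.5. The other 7 strains were thus close to each other, with a mean of 30.5 ± 3.46 (SD over 7 strain means), and A alone lay apart. With TM the log2 difference was -3.07 (limma adjusted p = 9.3e-12).

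Dysf encodes dysferlin, a protein of muscle membrane repair, on chr6:84008590-84211060 (GRCm38). A/J mice are known as a dysferlin-deficient strain through a retrotransposon inserted in an intron of this gene. The A controls gave 38.6, 41.0 and 34.0, while the other controls ranged from 107.2 in B6 to 367.8 in NZO. The log2 difference in the fit was -2.66, which is 6.30 fold on that scale. With TM the A levels were 26.9, 28.9 and 29.6 against 86.7 to 419.8 (log2 difference -2.77, limma adjusted p = 7e-11).

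**Figure D3:**
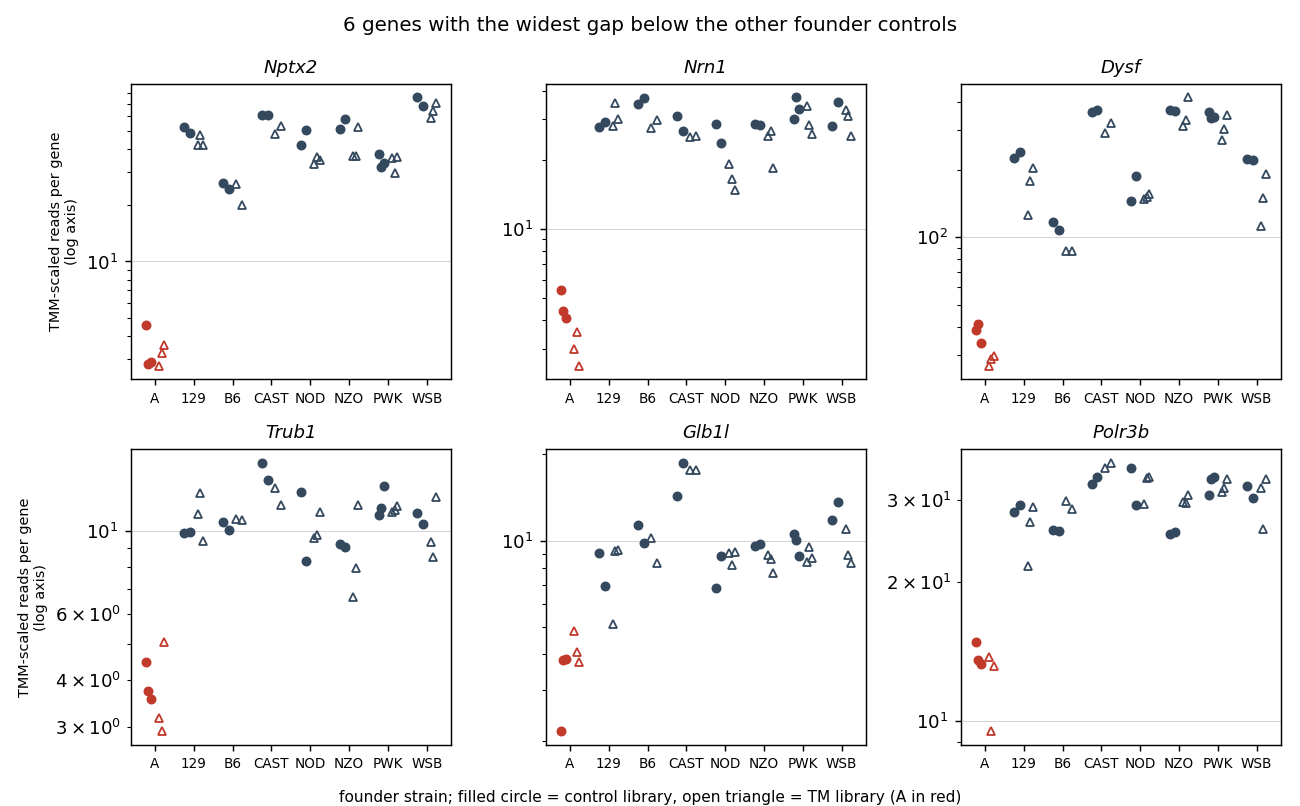
Level in TMM-scaled reads per gene (log axis) of 6 lower genes, by founder strain. They have the widest gap below the other founder controls among called genes with a mean of at least 5 over the other strains. Filled circles are control libraries, open triangles are TM libraries, and A is in red; the 3 A controls lie below the other 15 controls in every gene, by 2.40 on the log2 scale for Nptx2 and by 0.78 for Polr3b.

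Among called lower genes with a mean of at least 5 over the other strains, those with the next widest gaps included genes of basic cell functions. Trub1, a pseudouridine synthase of tRNA, gave 4.49, 3.74 and 3.57 in the A controls and 8.32 to 15.2 in the others. Polr3b, a core subunit of RNA polymerase III, gave 14.8, 13.6 and 13.3 against 25.4 to 35.3. Glb1l, a homologue of lysosomal beta-galactosidase, gave 2.15, 3.83 and 3.86 against at least 6.84. Sumf2, a homologue of the enzyme that activates sulfatases, gave 12.7, 8.29 and 8.56 against at least 18.1. All 4 were lower in A with TM, by 1.51, 1.35, 1.17 and 1.61 on the log2 scale, with limma adjusted p between 5e-08 and 1.1e-05.

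The other lower genes of the 12 encode guidance, adhesion and membrane proteins. Sema3c, a secreted semaphorin, gave 23.97, 37.1 and 34.1 against at least 50.6, and Plxna4, a semaphorin receptor, gave 1.80, 3.83 and 4.14 against at least 7.04. Tgfbi, a matrix adhesion protein, gave 18.3, 22.7 and 22.4 against at least 31.0. Upk1b, a uroplakin of the bladder epithelium, gave 1.53, 2.01 and 1.47, and the others ranged from 2.88 in CAST to 37.7 in NZO. Olfml2a, a secreted olfactomedin-like protein, gave 0.628, 1.82 and 0.964 against 2.50 to 33.9. All 5 were called lower with TM, although for Plxna4 and Olfml2a the A range overlapped that of the other TM libraries.

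Antioxidant and detoxifying enzymes were found on both sides, with Glo1 above and Hmox1, Gstm1, Cat and Aox1 below all other controls, of 44 tested. Over all tested genes 2.06% lay above and 1.58% below. In control cells 3 of the 44 were called higher and 9 lower, against 4.2% and 4.1% of all tested genes. Glo1 (chr17:30584936-30626871) encodes glyoxalase, which removes methylglyoxal, and A/J is known to carry a duplication of this region that includes Btbd9. Glo1 gave 220.8, 174.8 and 167.6 in the A controls. The other strains fell far apart, with means of 138.6 in 129 and 125.8 in CAST and of 42.4 to 61.7 in the remaining 5. With TM Glo1 was higher in A by 1.49 on the log2 scale (limma adjusted p = 1.4e-08), although A TM 1 with 150.2 lay below the highest other library with 173.3. The neighbour Btbd9 narrowly missed the rule, with 34.2, 40.6 and 42.0 in A against 38.65 in 129 control 3, and in TM-treated cells all 3 A libraries lay above the others (log2 difference 0.93, limma adjusted p = 2e-05).

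Hmox1, heme oxygenase, gave 316.6, 475.3 and 463.6 in the A controls against 564.1 to 943.0, with a log2 difference of -0.72, which was -0.53 and under the 1.5 fold limit without A control 1. With TM it did not pass the test (log2 difference -0.42, limma adjusted p = 0.023), but it did without A TM 2 (log2 difference -0.62, limma adjusted p = 0.0014). Gstm1, a glutathione transferase, gave 9.16, 17.4 and 15.99 against at least 19.7 and passed it (log2 difference -0.97, limma adjusted p = 5.2e-05). Aox1, aldehyde oxidase, differed from its nearest neighbour by little, at 3.74 or less in A against 3.78 in CAST, with PWK at 33.1. Catalase (Cat) met the rule with a log2 difference of -0.48. The median of the list was -0.08 in control and -0.04 in TM-treated cells, and with TM 3 genes were called higher and 7 lower, against 3.94% and 4.06% of all tested genes.

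Other genes for which A/J variants are documented were not set apart. Naip5, the sensor of bacterial flagellin that differs in A/J macrophages, was at 0.269, 0.456 and 0.624 in A, within the 0.177 to 4.22 of the others. Tyr, the pigment enzyme mutated in albino strains, was at 1.71, 2.00 and 1.87, and Cdh23, the cadherin of hair cells, at 0.718, 1.09 and 1.08, both within the range of the other controls. None of the 3 was called in TM-treated cells.

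Genes of patterning and imprinting were represented by a few members, where 2.06% of all tested genes lay above all other controls and 1.58% below. Tbx15 was outside by a narrow margin, with A controls of 64.9 to 66.0 against 62.8 in WSB, and Lmx1b, a factor of dorsal limb identity, with 4.48 to 6.83 against 4.46 in B6. Hoxa7 was lower, at 5.38 or less against at least 5.40. Of these only Hoxa7 was called in TM-treated cells (log2 difference -0.88, limma adjusted p = 0.0073). In control cells 6 of the 55 patterning genes tested were called higher and 8 lower, against 4.2% and 4.1% of all tested genes. With TM 3 were called higher and 7 lower, against 3.94% and 4.06% of all tested genes. Of the 20 imprinted genes tested 0 were called higher and 4 lower in control cells, and 0 and 2 with TM. Among 20 imprinted genes, Impact gave 80.7, 87.1 and 85.6 in A against 104.9 to 168.4 and was lower with TM (log2 difference -0.76, limma adjusted p = 5.7e-05), while the noncoding RNA Meg3 gave 201.5, 252.3 and 244.0 against at least 259.4 and had a log2 difference of -0.55 with TM, under the 1.5 fold limit. The control call of Meg3 was lost without A control 1, at the same -0.55, and without A TM 2 it was called lower with TM (log2 difference -0.63, limma adjusted p = 0.00032).

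Several groups had no member set apart in A. These were the 31 tested endoplasmic reticulum chaperones and genes of the unfolded protein response, the 52 cytosolic ribosomal proteins, the 16 heat shock proteins, the 23 genes of MHC class I and antigen processing, the 16 complement and acute phase genes and the 8 inflammasome genes. Members that were not outside could still be called. The complement genes had a median of -0.86 in control and -0.73 in TM-treated cells, with 6 called lower and 1 higher with TM, against 4.06% and 3.94% of all tested genes. Of the 8 inflammasome genes 1 was called lower in control cells and 3 were called higher with TM. Of the 16 heat shock proteins 3 were called higher in control cells and 2 with TM. Of the 23 MHC class I genes 2 were called higher and 4 lower in control cells, and 2 higher and 2 lower with TM. Over all tested genes 4.2% were called higher and 4.1% lower in control cells, and 3.94% and 4.06% with TM. Of the ribosomal proteins none was called in either condition, and of the chaperones 0 were called in control and 2 in TM-treated cells. The 31 chaperone genes summed to 12205 in A control 1 and to 8209 and 8044 in the other A controls, against 7447 to 9489 elsewhere. The heat shock genes summed to 10691 in A control 1 and to 8031 and 7854 in the others, against 7128 to 10344 elsewhere. Of 33 replication and mitosis genes E2f1 alone was outside, at a log2 difference of 0.39, and none was called. Btg2, an antiproliferative target of p53, was the only member of 20 p53 and senescence genes outside, with 153.0, 170.0 and 176.0 in A against at most 110.5, and it was higher with TM (log2 difference 1.25, limma adjusted p = 5e-09). Of 25 genes of lipid synthesis, Pmvk and Fads2 were outside, where 2.06% of all tested genes lay above all other controls. Pmvk, a kinase of the mevalonate pathway, gave 77.7 in A control 1 and 32.4 and 33.7 in the other A controls, against 30.6 in PWK. Its log2 difference was 0.75 without A control 1, in place of 1.16, and its call in TM-treated cells was lost without A TM 2 (limma adjusted p = 0.035). Fads2, a fatty acid desaturase, gave 75.3, 81.7 and 83.7 against at most 67.8 and was not called with TM (log2 difference 0.46, limma adjusted p = 0.059), but was without A TM 2 (log2 difference 0.71, limma adjusted p = 0.0045).

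The TM libraries gave the test that the rule did not use, on separately treated cultures of the same MEF lines. Over all tested genes limma called 3.94% higher and 4.06% lower in A in TM-treated cells. Among the 259 genes higher in control cells it called 127 (49.0%) higher, and among the 198 lower genes it called 107 (54.0%) lower. None was called in the opposite direction, and 255 and 197 kept their sign. The 259 include Klhl40 and Spi1, which passed the filter on controls through A libraries alone, and Spi1 is among the 127. Without A TM 2 the counts were 123 and 98, with 3.63% and 3.32% of all genes called. The stricter description, with every A library outside all others in TM-treated cells as well, held for 68 higher and 54 lower genes (26.3% and 27.3%), against 1.1% and 0.733% of all genes. The median difference was 0.70 and -0.81 on the log2 scale with TM, against 0.82 and -0.92 in the control libraries that had chosen the genes.

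**Figure D4:**
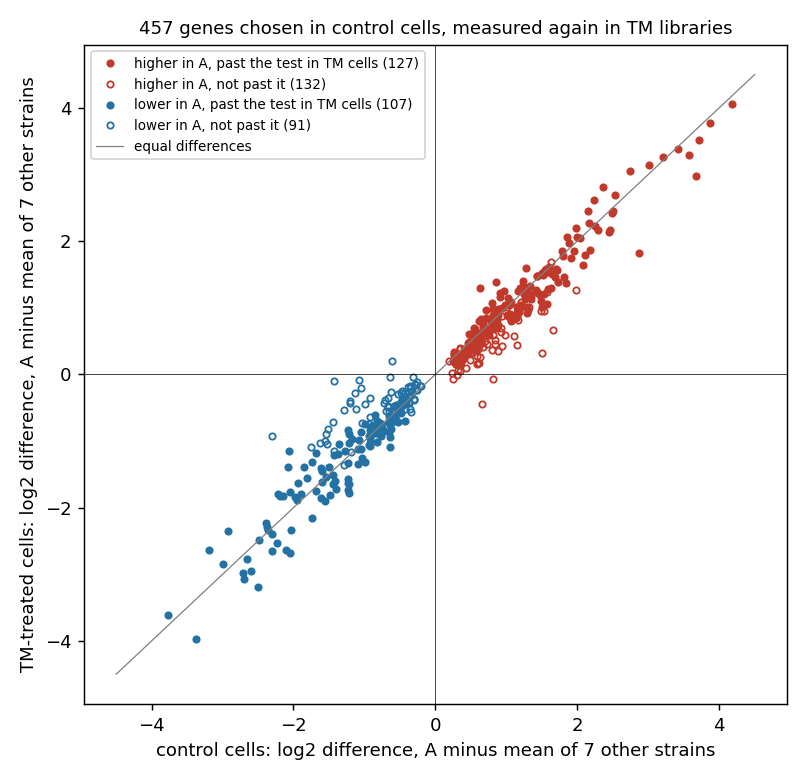
Log2 difference of A from the mean of the 7 other strains for the 457 genes, in control cells (horizontal) and in TM-treated cells (vertical), with the line of equal differences in grey. Filled points (127 higher, 107 lower) passed the limma test in TM-treated cells and open points did not; 255 of 259 higher and 197 of 198 lower genes have the same sign on both axes. The filled points include Spi1, which passed the filter on controls through A libraries alone.

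The difference of A from the other strains was not found to change with TM. In a fit of all 40 founder libraries, limma called 0 of 12571 autosomal genes for such a change at an adjusted p below 0.01, with 332 at an unadjusted p below 0.05, and the smallest adjusted p among the 457 genes was 0.9998. With a pseudocount of 1 it called 10 genes, none of them among the 457. This does not show that the differences were equal in both conditions. Nptx2, for example, differed by -3.76 in control and -3.60 in TM-treated cells, and Ifih1 by 0.88 and 0.36.

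Along the genome the genes were spread over all autosomes, from 2.15% of the tested genes of chr12 to 5.15% of those of chr2. Of the 305 genes that were outside and called in control cells, which are 2.43% of the genes tested, 15 (4.92%) had a next tested neighbour of the same kind, in 14 runs with 29 genes. The longest run held 3 genes on chr7:101263034-101412586, namely Atg16l2, Stard10 and Arap1. Stard10, a lipid transfer protein, gave 14.5, 7.75 and 8.45 in A against at most 5.87, and Arap1, a regulator of small GTPases, gave 84.4, 48.0 and 47.5 against at most 38.7. All 3 were highest in A control 1 and were called higher with TM, while the control fit without A control 1 did not call Atg16l2 and the TM fit without A TM 2 did not call Stard10.

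In the other runs, apart from the 3 named last, the neighbours moved the same way. Fmod and Btg2 lie next to each other on chr1, Hdhd3 and Alad on chr4 and Pimreg and Pitpnm3 on chr11, all higher in A, like Ifih1 and Gca on chr2. Pitpnm3, a phosphatidylinositol transfer protein, gave 17.8, 19.05 and 22.2 in A and up to 15.2 in 129, and Alad, an enzyme of heme synthesis, gave 69.4, 42.4 and 50.6 against at most 38.1. The lower pairs were Ankrd6 and Rragd and also Cachd1 and Raver2 on chr4, the protease inhibitors Serpinb9 and Serpinb9b on chr13, which are close paralogs and may share reads, Upk1b and Igsf11 on chr16, and Riox2 and Crybg3 on chr16, whose annotated ends overlap so that reads from unstranded libraries cannot be assigned to either strand. In the runs Cst3 and Syndig1, Sdcbp2 and Snph, and Oas1c and Rph3a, a higher gene stood beside a lower neighbour. Snph, syntaphilin, gave 0.180, 0.456 and 0.454 in A against at least 0.588, next to Sdcbp2, a PDZ protein, with 10.1, 7.20 and 7.88 against at most 5.80. Of the genes in these runs, Serpinb9, Gca, Raver2 and Oas1c lost their control call without A control 1, with limma adjusted p of 0.016, 0.011, 0.012 and 0.028. Gca and Oas1c also lost it without A control 2 and without A control 3. Cachd1 lost it without A control 2 and Riox2 without A control 3. Crybg3, Cst3, Snph and Cachd1 lost their call in TM-treated cells without A TM 2, with limma adjusted p of 0.014, 0.0052, 0.023 and 0.073, where the log2 difference of Cst3 fell under the 1.5 fold limit.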

How the data were processed

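RNA of MEFs from 8 founder strains was sequenced as 100 bp single-end reads from unstranded libraries, and 40 founder libraries were used, of which 18 are controls. Reads were aligned by the authors with TopHat 1.4.1 to strain-specific genomes and scaled with TMM in edgeR, and libraries that stood apart in a principal component analysis had been removed by them. The deposited signal values are named FPKM but step in whole reads, as reads per gene relative to a TMM-scaled library size, with no division by length. Counting intervals are not given, and p-values measure the spread between cultures of single MEF lines.

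Symbols and positions came from GENCODE M21 (GRCm38), which placed 13023 of 13197 genes. Genes with at least 0.5 in 2 libraries were fitted on log2(value + 0.1) with limma 3.58.1, with A set against the mean of 7 strain means. Fold changes on this scale understate the change of low genes. The adjustment is that of Benjamini and Hochberg over all tested genes, and the steps were tested on simulated data. Recovered reads were fitted with edgeR 4.0.16 and DESeq2 1.42.0. The genes and lists were chosen with earlier results of these data known. The genes named are the 12 higher and 12 lower with the widest gap, at a mean of at least 5, the called members of the lists, genes with documented A/J variants and runs of neighbours. Genes at the edge of the rule, and list members that were not called, were named after their values were seen. Crosses between strains were not used here. A gene among the 12 higher is not reported here.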

Additional observations from a re-analysis of the deposited data

How the results depend on the processing

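The count of genes called in control cells stayed within 1.5 times of 527 higher and 514 lower in all alternatives run: a pseudocount of 1, no filter, a mean of at least 2, median-of-ratios scaling, no trend, library weighting, a fit of 40 libraries, the 4 other classical strains, edgeR, DESeq2 and leaving out single libraries. DESeq2 called 749 and 494. With a replicate block the counts were 569 and 530 in control and 496 and 521 in TM-treated cells. Pairing by replicate number was examined on the deviation of each library from the mean of its own strain. Not every same-numbered pair of an A control and another control had deviations that correlated above 0.1 (8 of 15, median 0.11). For different numbers it was 7 of 30, with a median of -0.08. The numbers were therefore not taken to pair the samples. The deviations of A control 1 correlated with those of the controls 1 of CAST, NOD and PWK at 0.477, 0.314 and 0.19. For the change with TM, a pseudocount of 1 gave 10 genes in place of 0. The rule gave 659 higher and 650 lower genes against the 4 other classical strains, where fewer libraries have to be exceeded. In the TM libraries alone it gave 138 and 92. Leaving out single libraries gave 259 to 457 higher and 200 to 324 lower genes, with 457 and 319 without A control 1, 374 and 324 without A control 2, and 331 and 322 without A control 3. A rule with fewer A libraries is easier to meet. Of 82 named and called genes, 63 kept the call in all alternatives and none reversed. The call was lost by 10 without A control 1, by 8 without A control 2 and by 8 without A control 3. Against the classical strains 9 lost it. At levels of a few reads, as for Spi1, Emcn and Ctss, the depth limits the precision.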
